A study of Mus musculus with 4 samples.

Results

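The heat shock and chaperone genes of the mouse were examined among RNAs recovered with IGF2BP2 from bone-marrow-derived macrophages (BMDMs, macrophages grown in culture from bone marrow cells). They were taken by name from the protein-coding genes of the reference annotation: symbols that start with Hspa, Hspb, Hspd, Hspe, Hsph, Hsp90, Dnaja, Dnajb or Dnajc, those made of Cct and a digit, and Tcp1. This gave 83 of 22028 protein-coding genes. By family they were 3 Hsp90 genes, 14 Hsp70 and Hsp110 genes, and 45 J-domain genes (4 Dnaja, 13 Dnajb and 28 Dnajc). A further 9 genes were of the cytosolic chaperonin CCT and its relatives, and 2 of the mitochondrial chaperonin. The rest were 8 genes named Hspb and a digit, called small heat shock protein genes here by symbol alone, and Hspbp1 and Hspbap1. The last pair encode proteins named for binding Hsp70 and a small heat shock protein, and they met the naming rule without belonging to either family. A total of 41 members had a peak in at least 1 library.

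Chaperones bind unfolded or partly folded proteins and help them reach or regain their native shape. Hsp70 proteins hold short exposed stretches in a cycle driven by ATP, J-domain proteins bring them clients and start ATP hydrolysis, and Hsp110 proteins release the nucleotide. Hsp90 acts later on near-native clients such as kinases and receptors, and the ring-shaped chaperonins enclose whole proteins, of which actin and tubulin are the best known for CCT. In macrophages the Hsp90 of the endoplasmic reticulum (ER) is known for folding Toll-like receptors and integrins. IGF2BP2 binds mRNA and is known as one of the proteins that recognise m6A, the methylated adenosine of mRNA, whose common sequence context holds the letters GGAC.

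The study has 2 IGF2BP2 immunoprecipitation libraries, here called replicates 1 and 2, and 2 input libraries. All came from BMDMs, and the labels give no strain, genotype, age or treatment for them. The labels differ on the antibody, which the sample characteristics give as one against IGF2BP2 and the protocol as a monoclonal Flag antibody. They do not say whether the replicates were separate cultures or animals, so agreement between them may be technical. The immunoprecipitates each had 1 peak list with a tag count (sequenced fragments assigned to a peak) per peak; the inputs were not analysed here. In this readout strong binding of a scarce RNA and weak binding of an abundant RNA cannot be told apart.

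Replicate 1 held 15511 peaks with 189393 tags and replicate 2 held 22570 peaks with 324456 tags. These totals are tags in peaks, not library sizes, and the depth of the libraries is unknown. Of 11 macrophage marker genes, 8 had a sense peak in replicate 1 and 8 in replicate 2, and Cd14 and Lyz2 had none in either. The highest were Mrc1 with 1030 and 1880 tags, Csf1r with 932 and 1421, and Adgre1 with 421 and 661. Markers of other cells were at or near 0: none of 4 B cell, 4 erythroid or 4 dendritic cell genes had a peak, and the others were Cd3e (3 tags, replicate 1), Col1a2 (9 tags, replicate 1) and Mpo (10 tags, replicate 2).

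A sense peak, one on the strand of the gene, was present for 28 of 83 members in replicate 1, or 33.7% (exact 95% binomial interval 23.7 to 44.9), beside 22.0% of all protein-coding genes. In replicate 2 it was 40 of 83, or 48.2% (37.1 to 59.4), beside 26.7%. Both libraries held a peak for 27 members, or 32.5% (22.6 to 43.7), beside 17.0% of all protein-coding genes. For 19 members, or 22.9% (14.4 to 33.4), peaks of the libraries overlapped by at least 1 nt, beside 9.06%. Each member share was above the share over all protein-coding genes. The intervals cover counting error only, and no test was made, because the genes were chosen with earlier results of these data known. Members with a peak had a median mRNA length of 2825 nt, those without 1888.5 nt and other protein-coding genes with a peak 3357 nt; the part of length in the counts was not tested.

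Of the members, 42 had a peak in neither library, 13 in replicate 2 only, 1 in replicate 1 only, and 8 had peaks in both without any overlap. The member peaks numbered 96 with 1066 tags in replicate 1 and 134 with 1623 tags in replicate 2. Their tags were 1.52 times as many in replicate 2, while those of all protein-coding sense peaks were 1.8 times as many. Among the 27 members found in both, 20 had more tags in replicate 2, 6 had fewer and 1 had equal numbers, and the median ratio was 1.3, beside 1.62 for all protein-coding genes found in both. As a share of the tags of all protein-coding sense peaks, 8 of the 27 were higher in replicate 2 and 19 lower. A ratio near these medians therefore separates a gene little from the rest of the list. The ratios ran from 0.298 for Hspa5 to 5.08 for Tcp1. Tags were concentrated: the 5 highest members held 52.7% of member tags in replicate 1 and 43.2% in replicate 2, and Hsp90b1 alone held 19.1% and 19.3%.

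**Figure D1:**
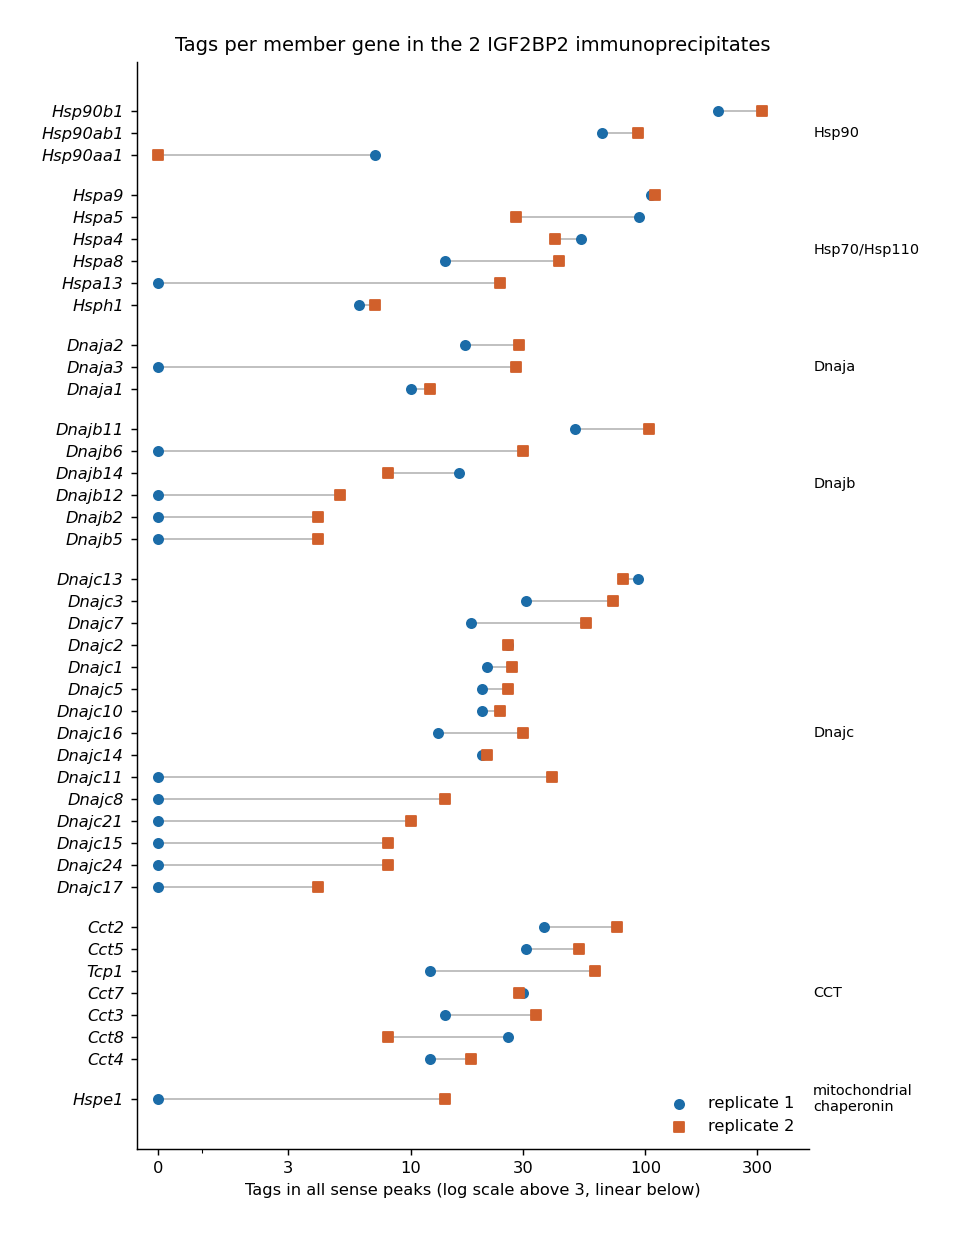
Tags summed over the sense peaks of each of the 41 members with a peak (horizontal axis, logarithmic above 3 tags) in replicate 1 (circles) and replicate 2 (squares), grouped by family. Hsp90b1 is highest in both libraries with 204 and 314 tags, and 14 members sit at 0 in 1 of the libraries.

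**Figure D2:**
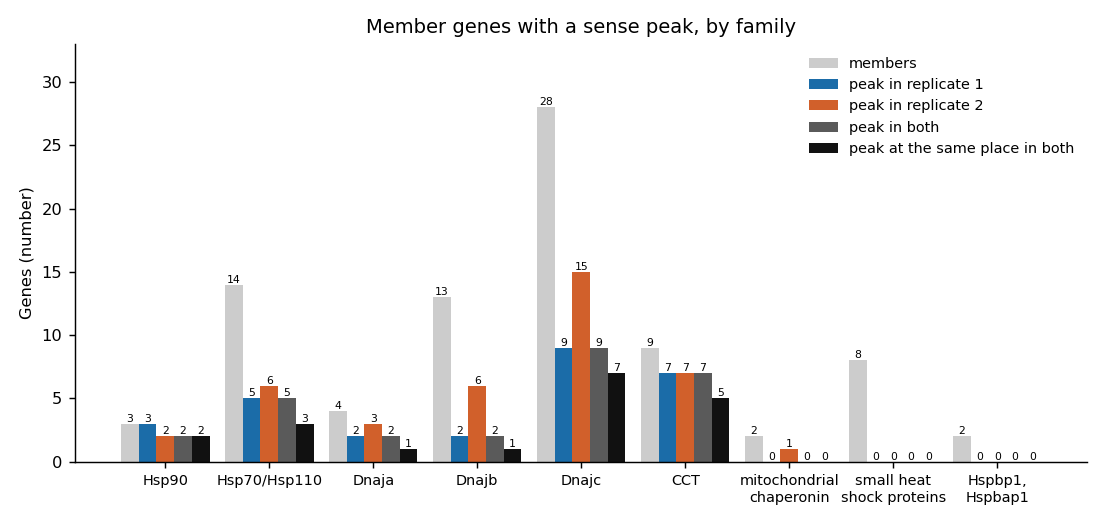
Number of genes (vertical axis) in each family, and how many of them had a sense peak in replicate 1, in replicate 2, in both, and at the same place in both. The CCT family has 7 of 9 genes in both libraries, while the 8 small heat shock protein genes have no peak. Of all protein-coding genes, 17.0% have a peak in both.

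The Hsp90 family held the member with most tags. All 3 of its genes had a peak in replicate 1 and 2 of them in replicate 2, with 276 and 407 tags in all. Over all protein-coding genes the shares with a peak were 22.0% and 26.7%. Hsp90b1, which encodes the ER paralogue GRP94, had 9 peaks with 204 tags in replicate 1 (exact 95% Poisson interval 177 to 234) and 7 peaks with 314 tags in replicate 2 (280 to 351). It lies on the minus strand of chromosome 10 from 86690209 to 86705509 (GRCm38). All 9 peaks of replicate 1 and 6 of the 7 in replicate 2 had most of their length in coding sequence, and the seventh ran from exon 3 into the neighbouring intron. They were spread from exon 3 to exon 17 of the 18 exons of the representative transcript, with single-peak counts of 16 to 31 tags in replicate 1 and 20 to 63 in replicate 2. The libraries shared 6 places. The highest peaks differed: in replicate 1 it was exon 8 with 31 tags, where replicate 2 had no peak, and in replicate 2 it was exon 17 with 63 tags, where replicate 1 had none.

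The sequences of 3 shared Hsp90b1 places are shown because they include the place with most tags in either library's shared peaks and a whole exon that was the peak in both. In these and all sequences below, GGAC is in capitals, the strand is that of the mRNA, and the stretch is the part of coding sequence common to both peaks, from the GENCODE transcript sequences. The first, exon 3 at chr10:86703460-86703601, had 28 tags in replicate 1 and 62 in replicate 2, and the second, exon 12 at chr10:86694350-86694611, had 25 and 44. The third, exon 16 at chr10:86692140-86692295, had 19 and 36.
Hsp90b1 exon 3: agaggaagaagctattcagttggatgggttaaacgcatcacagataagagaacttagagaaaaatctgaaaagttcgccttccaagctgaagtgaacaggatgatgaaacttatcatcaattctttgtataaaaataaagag
Hsp90b1 exon 12: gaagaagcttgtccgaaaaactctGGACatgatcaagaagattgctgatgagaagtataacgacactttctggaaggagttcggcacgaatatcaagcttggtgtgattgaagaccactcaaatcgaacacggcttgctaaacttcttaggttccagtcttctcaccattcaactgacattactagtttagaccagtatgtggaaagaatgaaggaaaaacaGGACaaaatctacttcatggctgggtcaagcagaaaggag
Hsp90b1 exon 16: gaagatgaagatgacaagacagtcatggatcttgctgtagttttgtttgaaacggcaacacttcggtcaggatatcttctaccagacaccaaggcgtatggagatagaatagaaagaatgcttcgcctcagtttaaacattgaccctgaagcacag
Exon 12 holds GGAC 2 times and is the only shared Hsp90b1 stretch with it. Exons 3 and 16 hold none, nor do the shared stretches of exons 4, 5 and 10, not shown. At the place with most tags the letters are thus absent from the shared exonic stretch. The replicate 2 peak there was 356 nt long with 0.6 of its length in intron, and that intronic part is not in the stretch searched. Of the 50-nt stretches of exon 16, 15.9% also occur in transcripts of Gm15344, so some of its tags could come from that gene. Here and below, such stretches were looked for in 146 member peaks that lay within 1 exon. Peaks that reached into introns were not checked, so a peak without a stated share is not thereby unique.

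Hsp90ab1, the constitutive cytosolic Hsp90, lies on the minus strand of chromosome 17 from 45567775 to 45573271. It had 3 peaks with 65 tags in replicate 1 and 2 peaks with 93 tags in replicate 2. Replicate 1 covered exons 2, 3 and 7 of 11 with 26, 22 and 17 tags. Replicate 2 had 36 tags on a peak over exon 3 and part of the intron before it, and 57 tags on a peak at the end of the gene, where replicate 1 had none. By tags the 3' end of the coding sequence was thus the strongest place in replicate 2, and it was not a peak in replicate 1. That peak was 714 nt long, with a maximum height (tags stacked at 1 position) of 21. The exon 3 peak of replicate 2 was 332 nt long with a maximum height of 26, so by height exon 3 was the stronger place. The stretch of exon 3 common to both, chr17:45571462-45571619, is shown because it holds GGAC 4 times, the most of the 29 shared coding stretches of members that were searched.
Hsp90ab1 exon 3: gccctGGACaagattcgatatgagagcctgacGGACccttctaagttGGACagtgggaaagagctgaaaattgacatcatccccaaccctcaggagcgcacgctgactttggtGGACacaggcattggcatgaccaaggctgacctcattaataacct
Hsp90aa1, the stress-inducible cytosolic Hsp90, had 1 peak of 7 tags in replicate 1, mostly in an intron with a part in coding sequence, and none in replicate 2. It was the only member found in replicate 1 alone.

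**Figure D3:**
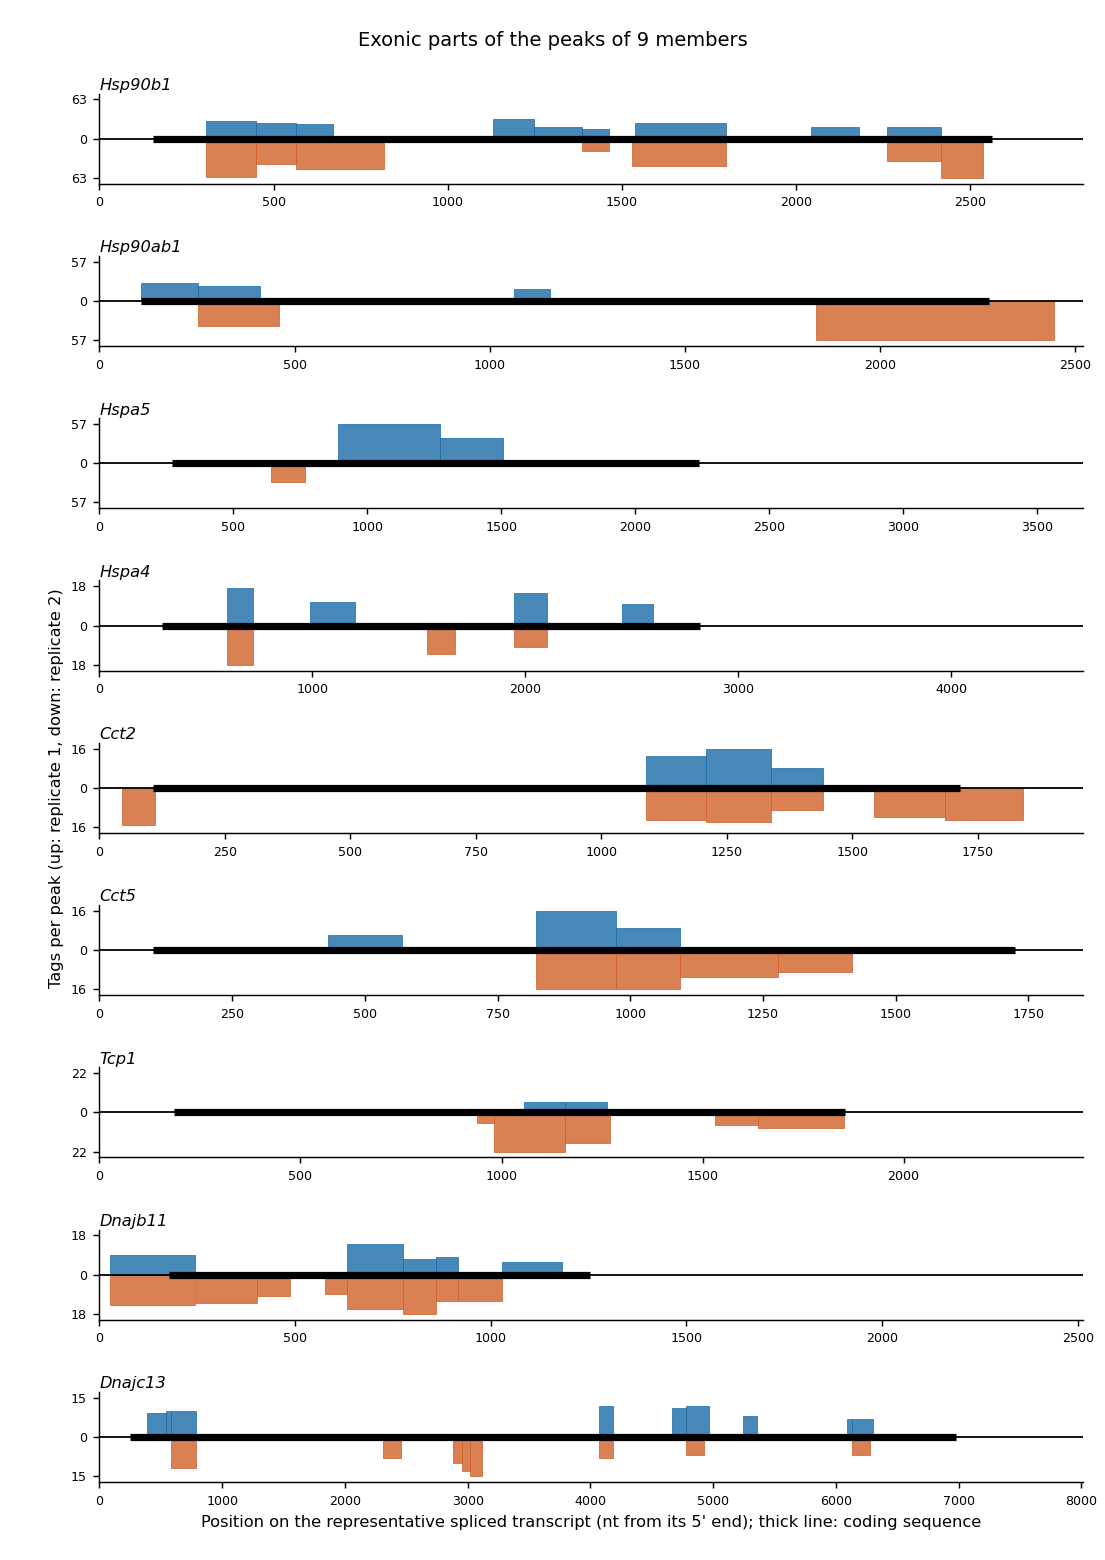
Exonic parts of the sense peaks of 9 members along the representative spliced transcript (horizontal axis, nt from its 5' end; thick line, coding sequence). Bar height is the tag count of each peak, upward for replicate 1 and downward for replicate 2; Hsp90b1 is covered along its coding sequence in both libraries, and the Hspa5 peaks do not overlap.

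The Hsp70 and Hsp110 family had peaks for 5 of 14 genes in replicate 1 and 6 in replicate 2, with 273 and 253 tags in all. The shares over all protein-coding genes were 22.0% and 26.7%. Hspa9, the mitochondrial Hsp70 also called mortalin, was the second highest member, with 7 peaks and 106 tags in replicate 1 and 7 peaks and 110 tags in replicate 2. The libraries shared 3 of its places. They were the end of the coding sequence with the start of the 3' UTR (23 and 23 tags), exon 8 of 17 (22 and 19 tags) and exon 11 (14 and 20 tags). Its tags were nearly equal in the libraries, but as a share of the tags in all protein-coding sense peaks replicate 2 was 0.577 times replicate 1. In transcripts of Hspa9-ps1, a pseudogene, 19.1% of the 50-nt stretches of the replicate 2 peak in exon 11 and 34.1% of those of the replicate 1 peak in exon 15 also occur.

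Hspa5 encodes BiP, the Hsp70 of the ER lumen. It had 94 tags in 2 peaks in replicate 1, one of 57 tags with its summit in exon 6 and one of 37 tags on exon 7 of 9. Replicate 2 had a single peak of 28 tags on exon 4. The summits lay at 48.2% and 52.6% of the coding sequence in replicate 1 and at 23.6% in replicate 2, and no peaks overlapped, so the tag counts of this gene were from different places. Its ratio of 0.298 was the lowest of the 27 members found in both.

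Hspa4, an Hsp110 relative that acts as a nucleotide exchange factor, had 53 tags in 4 peaks in replicate 1 and 41 tags in 3 peaks in replicate 2. Shared places were exon 4 of 19 with part of its intron (17 and 18 tags) and exon 14 (15 and 10 tags). Exon 14, chr11:53266966-53267118, is shown because the peak was the whole exon in both libraries and holds GGAC 3 times.
Hspa4 exon 14: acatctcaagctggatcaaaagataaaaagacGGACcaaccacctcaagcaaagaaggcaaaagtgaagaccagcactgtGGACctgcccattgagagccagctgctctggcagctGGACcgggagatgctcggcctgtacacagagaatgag
Hspa8, the constitutive cytosolic Hsc70, had 14 tags in replicate 1 and 43 in replicate 2. The shared places were the 5' UTR (6 and 8 tags) and exon 2, with part of an intron in replicate 2 (8 and 12 tags). Replicate 2 also had a peak of 12 tags in the last exon, in which 44.7% of the 50-nt stretches occur in transcripts of other genes. A further peak of 11 tags in replicate 2 covered 74 nt of Snord14e, a small nucleolar RNA of 90 nt in an intron of Hspa8 at chr9:40804748-40804837, and the snoRNA and the Hspa8 transcript cannot be told apart there.
Snord14e: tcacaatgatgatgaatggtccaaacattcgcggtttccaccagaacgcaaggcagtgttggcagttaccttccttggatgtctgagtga
With peaks mostly in introns left out, that one included, Hspa8 had 20 tags in replicate 2.

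Hsph1, the Hsp110 protein also called Hsp105, had 6 tags in replicate 1 and 7 in replicate 2, at different places. The replicate 2 peak was intronic, so with exonic peaks only Hsph1 had none in that library. Hspa13, an Hsp70-like protein of the ER and microsomes, had 24 tags in replicate 2 only. The stress-induced Hsp70 genes Hspa1a and Hspa1b had no peak in either library, and neither had Hspa1l, Hspa2, Hspa4l, Hspa12a, Hspa12b or Hspa14. Since the lowest deposited peak had 3 tags, a gene without a peak may still have had tags outside peaks. Stretches shared with other genes were looked for in peaks only, and so not in genes without one, such as Hspa1a and Hspa1b.

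J-domain proteins, which deliver clients to Hsp70, made up most of the members and had peaks for 13 of 45 genes in both libraries. By subfamily this was 2 of 4 Dnaja, 2 of 13 Dnajb and 9 of 28 Dnajc genes, beside 17.0% of all protein-coding genes. Dnajb11, the ER-lumen protein ERdj3 that works with BiP, had 50 tags in 6 peaks in replicate 1 and 104 tags in 8 peaks in replicate 2. All but 1 of its peaks in replicate 1 were overlapped in replicate 2, from the 5' UTR to exon 7 of 11. Exon 5, chr16:22868711-22868853, had 14 and 16 tags and exon 6, chr16:22869121-22869203, had 7 and 18. They are shown as neighbouring exons with and without GGAC.
Dnajb11 exon 5: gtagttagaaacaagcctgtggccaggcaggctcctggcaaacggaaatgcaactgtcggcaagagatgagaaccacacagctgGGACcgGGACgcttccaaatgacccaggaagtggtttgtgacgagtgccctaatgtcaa
Dnajb11 exon 6: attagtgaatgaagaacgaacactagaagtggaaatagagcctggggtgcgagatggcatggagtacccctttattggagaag
Exon 5 holds GGAC 2 times and exon 6 not at all.

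Dnajc13, an endosomal protein also called RME-8, was the third highest member by mean rank and had more peaks than any other in replicate 1. It had 93 tags in 10 peaks in replicate 1 and 80 tags in 8 peaks in replicate 2, all but 1 of them in coding sequence. Its transcript has 56 exons, and the shared places were exons 6, 34, 40 and 51 with 7 to 12 tags in each library. Exon 6, chr9:104233534-104233734, was the whole peak in both libraries with 10 and 12 tags and holds no GGAC.
Dnajc13 exon 6: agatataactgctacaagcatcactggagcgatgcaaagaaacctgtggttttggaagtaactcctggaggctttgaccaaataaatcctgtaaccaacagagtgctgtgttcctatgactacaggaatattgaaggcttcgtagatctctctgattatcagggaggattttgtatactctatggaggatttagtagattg
Other J proteins of the ER that work with BiP had fewer tags than Dnajb11. Dnajc3, the cochaperone p58IPK, had 31 and 73 tags, Dnajc10, the disulphide reductase ERdj5, 20 and 24, and Dnajc1, the membrane protein ERdj1, 21 and 27. Dnajc3 had peaks in its 5' UTR (5 and 12 tags) and 3' UTR (14 and 10 tags) at shared places. In Dnajc1 replicate 1 had 4 intronic peaks of 4 to 5 tags that replicate 2 lacked, and the libraries shared a place in exon 11 of 12 (4 and 6 tags). No place of Dnajc10 was shared.

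Dnajc7, a cytosolic protein with TPR repeats that binds Hsp70 and Hsp90, had 18 and 56 tags, and exon 12 of 14 was shared with 9 and 15. Dnajc2, a ribosome-associated J protein, had 26 and 26 tags and shared exon 12 of 17 with 6 and 8. Of its replicate 2 peak at exon 12, 0.67 of the length was intron. All 50-nt stretches of its replicate 2 peak of 6 tags in exon 7 also occur in Gm18913. Dnajc5, the cysteine string protein of secretory vesicles, had 20 and 26 tags, and all of its 4 peaks lay in the 3' UTR. A single place of Dnajc5 was shared, with 13 and 20 tags. Dnajb14, a J protein of the ER membrane, also had its 2 replicate 1 peaks (10 and 6 tags) in the 3' UTR, and its replicate 2 peak of 8 tags lay at the end of the coding sequence. In Dnajc5 and Dnajb14 most peaks thus lay outside the coding sequence.

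Dnaja2, a cytosolic cochaperone of Hsc70, had 17 and 29 tags with no shared place. Dnajc14, of the ER membrane, had 20 and 21 tags and no shared place, and Dnajc16 had 13 and 30 with 1 shared place in exon 2 of 15. Dnaja1, a cytosolic Hsp70 partner, had 10 and 12 tags at shared places in exons 1 and 2 of 9. Of its replicate 1 peak at exon 1, 0.58 of the length was intron. In its exon 2 peaks 87.4% and 88.0% of the 50-nt stretches also occur in Gm15542 or Gm7816, so these tags cannot be given to Dnaja1 with certainty. Dnajb1, the stress-induced partner of Hsp70, had no peak in either library. The J-domain genes found in replicate 2 only were led by Dnajc11 (40 tags), Dnajb6 (30), Dnaja3 (28) and Dnajc8 (14). Dnajc11 and Dnaja3 encode mitochondrial proteins, and Dnajb6 a suppressor of protein aggregation.

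The CCT genes had peaks for 7 of 9 members in each library, the same 7 in both, beside 17.0% of all protein-coding genes in both. They held 162 and 278 tags in all. Their peaks lay almost wholly in coding sequence: 17 of 18 in replicate 1 and 23 of 26 in replicate 2. The 7 were Tcp1, Cct2, Cct3, Cct4, Cct5, Cct7 and Cct8, subunits of the ring. Cct6b and Cct8l1 had no peak. Cct6a, the broadly expressed CCT6 subunit, is a processed transcript and not protein-coding in the annotation used, and is therefore no member.

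Cct2 was the highest, with 37 tags in 3 peaks in replicate 1 and 76 tags in 6 peaks in replicate 2. All 3 replicate 1 peaks, which were exons 11, 12 and 13 of 16, were found again in replicate 2, with 13 and 13, 16 and 14, and 8 and 9 tags. Replicate 2 added peaks near both ends of the transcript, at exons 1, 15 and 16. Cct5 had 31 and 52 tags and shared exons 6 and 7 of 11, with 16 and 16 and with 9 and 16 tags. The adjoining exons of both genes are shown because each was a whole peak in at least replicate 1: Cct2 exon 11 at chr10:117056040-117056159 and exon 12 at chr10:117055107-117055235, and Cct5 exon 6 at chr15:31594097-31594246 and exon 7 at chr15:31593515-31593634.
Cct2 exon 11: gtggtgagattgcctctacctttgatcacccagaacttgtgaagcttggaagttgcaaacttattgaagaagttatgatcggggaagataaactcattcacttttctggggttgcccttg
Cct2 exon 12: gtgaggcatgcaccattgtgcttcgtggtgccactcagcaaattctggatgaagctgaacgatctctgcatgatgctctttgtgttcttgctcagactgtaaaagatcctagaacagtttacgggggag
Cct5 exon 6: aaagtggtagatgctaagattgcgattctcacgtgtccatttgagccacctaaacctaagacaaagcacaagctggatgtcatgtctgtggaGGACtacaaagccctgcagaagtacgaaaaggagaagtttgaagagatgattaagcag
Cct5 exon 7: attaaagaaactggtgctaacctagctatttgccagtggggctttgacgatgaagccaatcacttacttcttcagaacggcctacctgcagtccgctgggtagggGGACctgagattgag
The Cct5 exons hold GGAC 1 time each, and the Cct2 exons hold none, at tag counts of the same order.

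Tcp1, the alpha subunit, had 12 tags in 2 peaks in replicate 1 and 61 tags in 5 peaks in replicate 2, the largest ratio of the members. Its 2 shared places were neighbours, exon 8 (6 and 22 tags) and exon 9 (6 and 17 tags) of 12. Cct7 had 30 and 29 tags, and shared only exon 6 of 12 with 8 and 16. Cct3 had 14 and 34 tags, and all 3 of its replicate 1 peaks were shared. In its replicate 2 peaks of exons 11 and 12, 3.79% and 14.1% of the 50-nt stretches occur in other transcripts. Cct4 (12 and 18 tags) and Cct8 (26 and 8 tags) had peaks in both libraries but none at the same place. Of the 7 genes found in both libraries, 5 thus had a shared place.

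The mitochondrial chaperonin gave peaks for 1 of its 2 genes and the small heat shock proteins gave none. Of all protein-coding genes 22.0% had a peak in replicate 1 and 26.7% in replicate 2, so most genes had none. Hspe1, the mitochondrial co-chaperonin Hsp10, had 14 tags in 2 peaks in replicate 2 only, and 80.3% and 100.0% of the 50-nt stretches of those peaks occur in other transcripts. Hspd1, its Hsp60 partner, had no peak. None of the 8 small heat shock protein genes had one, Hspb1 among them, and Hspbp1 and Hspbap1 had none on their own strand.

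Member peaks lay in coding sequence more often than the peaks of other protein-coding genes. It covered most of 75.0% of the 96 member peaks in replicate 1 (exact 95% binomial interval 65.1 to 83.3) and 68.7% of the 134 in replicate 2 (60.1 to 76.4), beside 47.0% and 44.7% of other peaks. Introns covered 14.6% (8.21 to 23.3) and 17.9% (11.8 to 25.5), beside 37.1% and 40.2%. The 3' UTR shares were 7.29% (2.98 to 14.4) and 8.96% (4.71 to 15.1), beside 12.5% and 11.8%, and the 5' UTR shares 3.12% and 4.48%, beside 2.69% and 2.67%. The coding and intron intervals lay clear of the other genes' shares in both libraries, and the UTR intervals contained them in both. Peaks of 1 gene are not independent, and the intervals cover counting error only. The median gene span was 21674 nt for members with a peak and 33950.5 nt for other protein-coding genes with a peak, and the part of gene span in the intron share was not tested.

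**Figure D4:**
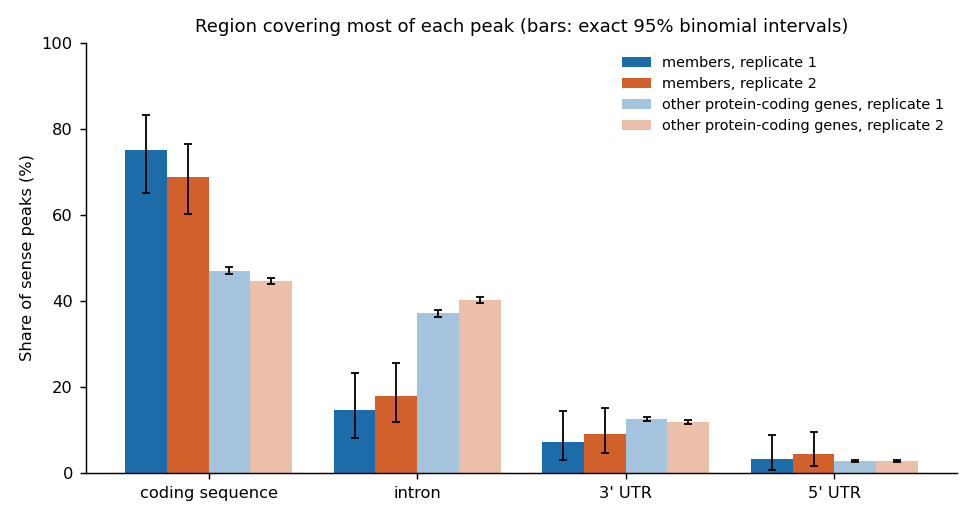
Share of sense peaks (vertical axis, percent) with most of their length in coding sequence, intron, 3' UTR or 5' UTR, for members (dark bars) and other protein-coding genes (pale bars) in each library. Error bars are exact 95% binomial intervals; coding sequence holds 75.0% and 68.7% of member peaks beside 47.0% and 44.7% of the others.

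Single member peaks were no stronger than those of other genes. The median was 8 tags in replicate 1 and 8.5 in replicate 2, beside 8 and 9, with a range of 4 to 57 and 4 to 63. Members with a peak had more of them, with a median of 3 peaks in each library beside 2, and median totals of 20.5 and 27.5 tags beside 11 and 14. Some peaks on neighbouring exons abut on the spliced transcript, as in Cct4 of replicate 1 (nt 1409 to 1491 and 1492 to 1633, 6 tags each). Whether a tag across such a junction was counted in both peaks is not known, so summed tags may hold some tags more than once. The number of peaks per gene is open to the same doubt. Member peaks were also shorter, with a median of 147.5 and 169 nt beside 197 and 216 nt.

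Many member peaks ended where exons end. Both ends were the ends of 1 annotated exon for 37.5% of member peaks in replicate 1 (27.8 to 48.0) and 23.9% in replicate 2 (16.9 to 32.0), beside 16.1% and 16.1% of other genes' peaks. At least 1 end did so for 71.9% and 70.1%, beside 42.6% and 42.0%. Of the 44 overlapping pairs of peaks in 19 members, 10 pairs in 7 genes had the same start and end in both libraries, and all 10 were a whole exon. Equal ends therefore mark the exon and not a site inside it. The share of pairs with equal ends was 22.7%, beside 11.1% of the 5085 pairs in all protein-coding genes, and the median distance between summits was 18 nt beside 30 nt.

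By the region covering most of each peak, 31 of 44 pairs were in coding sequence in both libraries. The 3' UTR held 3, the 5' UTR 2 and introns 2, and the regions differed for 6. The part common to a pair can lie in another region than most of the peaks. Tags were higher in replicate 2 in 33 pairs, lower in 6 and equal in 5. The pairs held 44 peaks of replicate 1 and 42 of replicate 2. In Dnajb11 and Hsp90ab1, 1 long replicate 2 peak overlapped 2 replicate 1 peaks, and its tags stand in both pairs. Among all sense peaks, 45.8% of the member peaks of replicate 1 (35.6 to 56.3) and 31.3% of those of replicate 2 (23.6 to 39.9) were overlapped in the other library. The shares for other protein-coding genes were 36.9% and 25.3%, both within the member intervals.

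**Figure D5:**
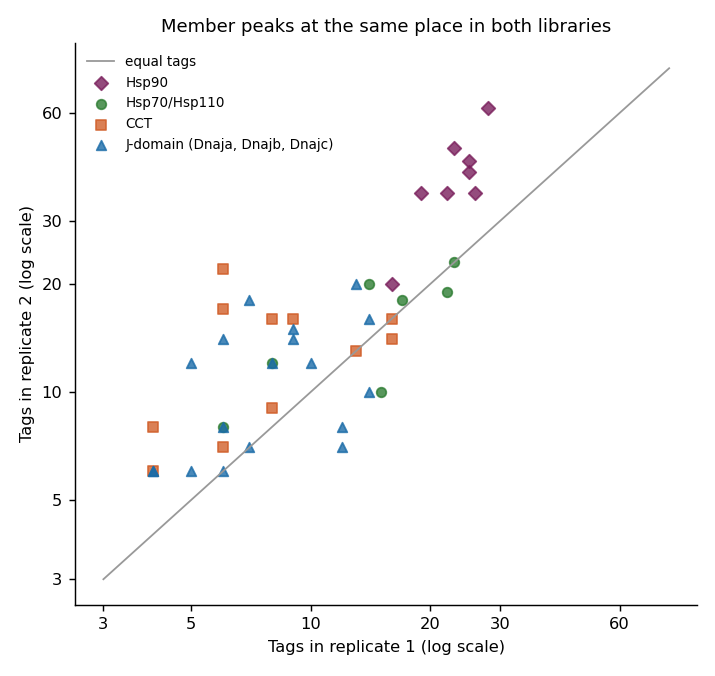
Tags of the 44 overlapping pairs of member peaks in replicate 1 (horizontal axis, log scale) and replicate 2 (vertical axis, log scale), by family; the line marks equal tags. The pair with most tags, in Hsp90b1, is at 28 and 62, and 33 pairs lie above the line. The pairs hold 42 peaks of replicate 2, so some of these stand in more than 1 pair.

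The letters GGAC were no more common around member summits than around those of other genes. In windows of 101 nt of mRNA centred on the summit, at least 1 GGAC on the mRNA strand was present in 34 of 87 member windows in replicate 1, or 39.1% (28.8 to 50.1), and 37 of 122 in replicate 2, or 30.3% (22.3 to 39.3). The shares for other protein-coding genes were 40.0% and 40.0%, within the member interval in replicate 1 and above it in replicate 2. On the other strand of the same windows the letters were present in 12.6% and 22.1%, beside 26.9% and 26.9%. Mean GC content was 48.8% and 48.8% for members and 52.2% and 52.2% for the others. Of the 29 stretches common to both libraries that lay within 1 coding exon, in 13 genes, 12 held GGAC and 17 did not; Hspa9 was left out of this count. A match is a description of the letters and not a methylated site.

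Genes that work with the chaperones gave a mixed picture. Of 29 Hsp90 and Hsp70 cochaperones outside the set, 19 had a peak in replicate 1, 22 in replicate 2, 16 in both and 8 at the same place. By the mean of their ranks in the libraries, the highest were Hyou1, an Hsp110-like ER protein (124 and 152 tags), Gak, which carries a J domain (66 and 52), and Fkbp8 (45 and 62). Of 14 ER folding genes, 12 had a peak in each library, 10 in both and 9 at the same place. By the same rank, the highest were Canx, Pdia4 and Pdia3. Canx, the lectin chaperone calnexin, had 268 and 501 tags, Pdia4 129 and 265 and Pdia3, both disulphide isomerases, 117 and 195. Tags are sums per gene and were not divided by transcript length, so their order is not one of binding per length.

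Of 11 prefoldin genes and chaperonin partners or substrates, 4 and 5 had a peak, 2 in both and 1 at the same place. The highest was Actb, a CCT client, with 330 and 423 tags, then Tubb5 with 33 and 79 tags. Of 10 heat shock factors and stress regulators, 6 and 8 had a peak, 6 in both and 4 at the same place. Highest of the 10 by mean rank were Atf4 (24 and 73 tags, no shared place), Nfe2l2 (30 and 48) and Ern1 (10 and 42). Eif2ak3, a kinase of the ER stress response, had fewer tags in replicate 2 (26 and 8). Hsf1, the main heat shock factor, had 8 tags in replicate 2 only. Of 5 Hsp100 and AAA unfoldase genes, 4 had a peak in both libraries and 1 at the same place, Vcp, with 22 and 94 tags. The counts are descriptions of lists chosen with earlier results known, to be read beside 17.0% of all protein-coding genes with a peak in both libraries.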

How the data were processed

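RNA recovered with IGF2BP2 from BMDMs was sequenced in 2 libraries. The submitters' processing notes name bcl2fastq, TopHat2 and GRCm38. Which program called the peaks, and with what threshold, is not given in the sources used here. Each peak in the lists the authors deposited has a tag count, whole, not normalized and never below 3. Per the file headers it also has a maximum height, the coverage signal of tags stacked at 1 position. The peak lists were made per library and hold no input value, fold or p-value.

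Deposited starts count from 0: 9578 starts lay 1 nt before an annotated exon start and 67 on one, while 9648 ends lay on an exon end. 1 was therefore added to starts and summits. Members are protein-coding genes of GENCODE M21 (GRCm38), joined by the authors' gene identifier without its version, and 99.7% and 99.8% of the peaks with an identifier matched. Antisense peaks were set aside. A peak's region is the one covering most of it in the authors' annotation. The representative transcript was chosen by APPRIS rank, support level and length. Peaks of a gene were at the same place when they overlapped by at least 1 nt. Python 3.11.15, numpy 2.4.6, pandas 2.3.3 and scipy 1.17.1 were used, and the code was tested on simulated data. No test was made between groups, since the only group with values has 2 libraries.

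The gene set and the gene lists were chosen with earlier results of these data known. Named are members with peaks in both libraries, all Hsp90, CCT and mitochondrial chaperonin genes, 9 further well-known members, and those with most tags among members of 1 library, with up to 3 genes per outside list. The intervals and tag counts cover counting error only, without molecular identifiers. Alternatives were a tag minimum, the stronger 50% of peaks, equal peak numbers, exonic peaks, another gene assignment, other overlaps and each library alone.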

Additional observations from a re-analysis of the deposited data

Results flagged for a closer look

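Peaks on the strand opposite to a member were not part of the gene counts. They held 6 tags in 2 peaks in replicate 1 and 26 tags in 6 peaks in replicate 2. Dnajb13 accounted for 4 of the 6 in replicate 2, with 17 tags. These 4 peaks lay on the plus strand of chromosome 7 between 100503524 and 100505614, 1504 to 3427 nt past the annotated end of Ucp2, with no annotated gene on that strand there. The others were Hsp90ab1 (5 tags) and Hspa5 (4 tags) in replicate 2, and Dnajc1 and Hspbap1 (3 tags each) in replicate 1. The inputs were not analysed here, and the source of these tags was not tested.

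Cct6a, a CCT subunit gene that the annotation does not give as protein-coding, held 27 tags in 3 sense peaks in replicate 1 and 64 tags in 7 sense peaks in replicate 2. At 2 places the libraries overlapped, and both lay in introns over small nucleolar RNAs: Gm23245 with 10 and 7 tags, and Snora15 with 10 and 10 tags. The small RNAs and the Cct6a transcript cannot be told apart there. The remaining peaks lay in exons and were not shared, with 7 to 12 tags.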

How the results depend on the processing

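With only the stronger 50% of each list, 23 members in replicate 2 and 15 in both libraries had a sense peak, against 12.8% and 8.19% of all protein-coding genes. The median tags per member peak became 7 and 7 when maximum height was used, and 10 and 9 with peaks of at least 6 tags. Counting 1 library alone gave 28 to 40 members. Adding Cct6a, chosen after seeing the data, gave 29, 41, 28 and 20 members in replicate 1, in replicate 2, in both and at the same place. The remaining counts of members and the region shares moved by less than 1.5 times or within their intervals. Of 270 values of single members, 47 moved by at least the SD of the gene's 2 library values. A set of the same size, 47, but not of the same values throughout, fell outside the exact 95% Poisson interval of the reported count. The SD is wide where the libraries differ and 0 where they are equal, so the count by SD does not measure stability. With the stronger 50% of peaks, Tcp1 in replicate 1 fell from 12 tags to 0 and was not counted as moved by the SD. Without intronic peaks Hspa4 had 36 and 23 tags, and Cct7 18 in replicate 1. No paired analysis was possible because only the immunoprecipitation libraries have values here, so no test between groups was made. Depth limits what absence of a peak means, since no peak had under 3 tags.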
